A study of Homo sapiens with 6 samples.

Results

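Polycomb repressive complex 2 (PRC2) is the enzyme complex that methylates lysine 27 of histone H3, and the transcripts of 10 of its genes were followed here out of 60666 genes listed in each library. The genes were taken by symbol: the alternative catalytic subunits EZH2 and EZH1, the core subunits SUZ12 and EED, the histone-binding subunits RBBP4 and RBBP7, and the accessory subunits MTF2, PHF19, JARID2 and AEBP2. RNA-seq was compared between DNMT3B KO cells, a knockout derivative of the HCT116 colorectal carcinoma line that lacks the de novo DNA methyltransferase DNMT3B, and the wild-type HCT116 line from which they came, with 3 libraries of each and no treatment. The knockout is a single derived line, and nothing in the labels tells whether its 3 libraries, or those of HCT116, were grown as separate cultures. The p-values therefore cover the spread among these 6 libraries and no more.

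PRC2 places the H3K27me3 mark of facultative heterochromatin and keeps developmental genes silent. Its catalytic subunit needs SUZ12 and EED to be active, with EED also binding H3K27me3 so that the mark can spread. EZH2 is the form of dividing cells and EZH1, a weaker methyltransferase, is more prominent in resting cells. MTF2 and PHF19 are Polycomb-like proteins of the PRC2.1 form, while JARID2 and AEBP2 define PRC2.2.

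Of the 10 genes, 2 rose (EZH2 and RBBP4), 1 fell (EZH1) and 7 did not pass the test in DNMT3B KO compared to HCT116 cells. All 10 passed the filter on low counts. The share called must be read against the whole transcriptome, since 28.1% of 16959 tested genes were called (12.9% of the tested genes as higher and 15.1% as lower). Among the 8779 tested genes with a mean CPM (TMM-normalised counts scaled to a common library size) between that of EZH1 and that of RBBP4, 28.5% were called. The median log2 fold change was 0.08 over the PRC2 genes and -0.00 over all tested genes, and the median size of the change was 0.10 over the PRC2 genes and 0.31 over all tested genes. The libraries of the cell lines did not overlap for EZH2, RBBP4, RBBP7 and PHF19, which were higher in DNMT3B KO cells, and for EZH1, which was lower. Over all tested genes, 45.9% did not overlap. A gene is called here at an adjusted p under 0.05 from edgeR's quasi-likelihood test.

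**Figure D1:**
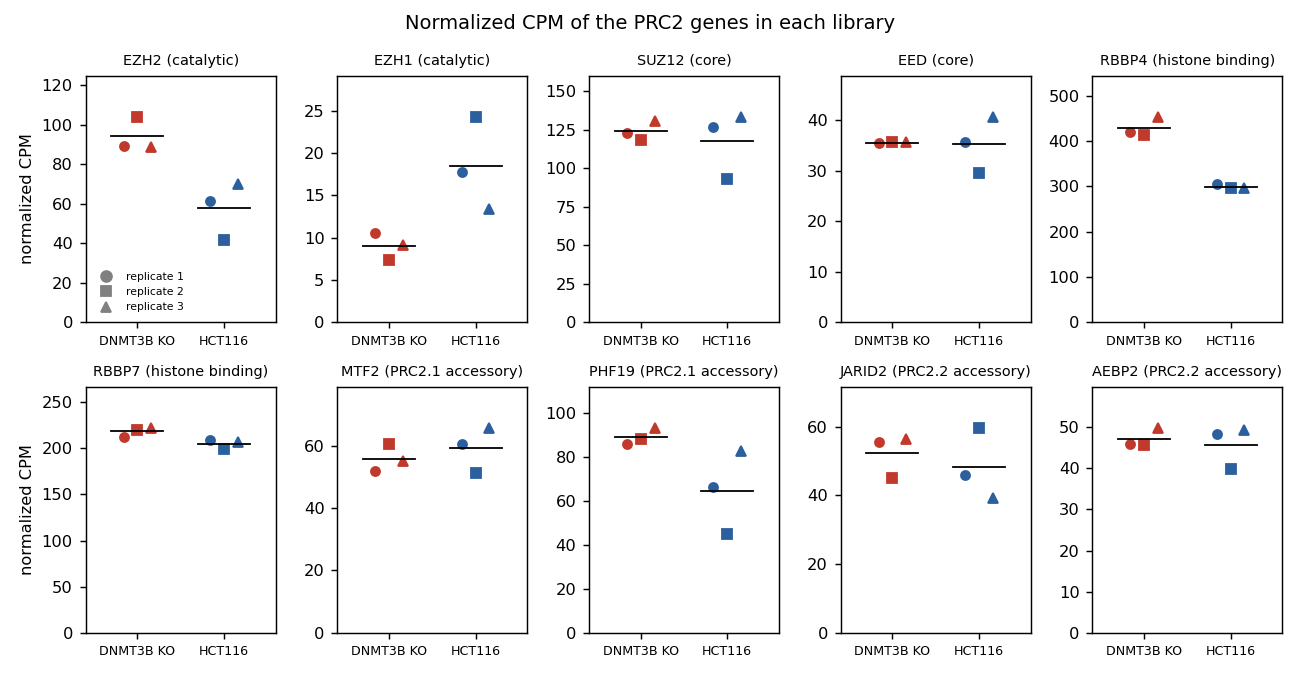
Normalized CPM (vertical axes, from 0) of the 10 PRC2 genes, with 1 point per library (DNMT3B KO in red, HCT116 in blue, marker shape for the replicate number) and a black line at each mean. EZH2 lies at 88.8 to 104 CPM in DNMT3B KO and 41.5 to 69.9 CPM in HCT116 libraries, and HCT116 replicate 2 (square) is the lowest HCT116 library in 8 of the 10 panels.

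Summed counts were 56277217 to 67624429 in DNMT3B KO and 55436267 to 68274783 in HCT116 libraries. DNMT3B itself, the disrupted gene, had 2.54, 2.87 and 2.83 CPM in DNMT3B KO replicates 1, 2 and 3 against 38.5, 30.1 and 39.5 CPM in HCT116 replicates 1, 2 and 3. The 10 markers of colorectal epithelium summed to 2326 to 2520 CPM in DNMT3B KO and 4741 to 5539 CPM in HCT116 libraries, and 6 of them (CDH1, KRT8, KRT18, KRT19, CLDN4 and CLDN7) fell, with log2 fold changes of -1.70 for CDH1 to -0.57 for CLDN7. EPCAM and CDX2 did not pass the test, VIL1 rose (log2 fold change 3.62, at 1.05 CPM in DNMT3B KO and 0.08 CPM in HCT116 cells) and LGALS4 was too low to test. Markers of other cell types, DNMT3B KO against HCT116 libraries, summed to 15.3 to 17.9 against 9.98 to 19.9 CPM (6 for fibroblasts), 15.8 to 21.3 against 5.83 to 14.3 CPM (7 for immune and blood cells), 1.48 to 1.94 against 0.61 to 1.52 CPM (4 for endothelium) and 7.39 to 8.75 against 57.1 to 75.7 CPM (4 for neural cells, with SYT1 at 5.74 to 6.58 against 56.5 to 75.1 CPM). LUM and MS4A1 were at 0 in all libraries. What part these differences have in the PRC2 values was not tested. HCT116 replicates 2 and 3 stood apart from each other on the second principal component, which held 13.2% of the variance, with replicate 1 between them. With all libraries 4761 genes were called. Leaving out a library lowered this to 3148, 3049 and 3095 without DNMT3B KO replicates 1, 2 and 3 and to 3109 without HCT116 replicate 1. Without HCT116 replicates 2 and 3 it rose to 5924 and 5754.

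The starts of the 3 called genes, and of RBBP7 as the uncalled paralog of RBBP4, are shown because EZH2 and RBBP4 rose while EZH1 and RBBP7 did not. Each sequence is a RefSeq window (GRCh38.p14, the build of the authors' alignment) of 300 bases, 250 before and 50 from the transcription start on, printed 5′ to 3′ on the strand of the gene, which includes the first bases of the transcript. They lie at chr7:148884242-148884541 (minus strand, EZH2), chr17:42744991-42745290 (minus strand, EZH1), chr1:32650958-32651257 (plus strand, RBBP4) and chrX:16870313-16870612 (minus strand, RBBP7). Capitals mark matches, on either strand, to TTGGCGC or TTCGCGC (cores of E2F sites), to CCAAT (NF-Y) and to TTTGAA (the CHR element of cell cycle genes).
EZH2: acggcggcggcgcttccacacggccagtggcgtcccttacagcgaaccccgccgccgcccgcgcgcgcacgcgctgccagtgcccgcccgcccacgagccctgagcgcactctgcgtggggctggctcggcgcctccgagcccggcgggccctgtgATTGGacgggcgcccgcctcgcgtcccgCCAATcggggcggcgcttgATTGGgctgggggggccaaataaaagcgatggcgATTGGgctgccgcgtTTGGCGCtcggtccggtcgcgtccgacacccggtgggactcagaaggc
EZH1: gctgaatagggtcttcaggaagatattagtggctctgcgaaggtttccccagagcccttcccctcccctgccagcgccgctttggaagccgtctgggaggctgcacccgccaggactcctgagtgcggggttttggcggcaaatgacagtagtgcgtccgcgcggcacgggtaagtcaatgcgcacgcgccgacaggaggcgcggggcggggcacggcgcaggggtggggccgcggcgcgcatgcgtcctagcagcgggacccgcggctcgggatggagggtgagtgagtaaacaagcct
RBBP4: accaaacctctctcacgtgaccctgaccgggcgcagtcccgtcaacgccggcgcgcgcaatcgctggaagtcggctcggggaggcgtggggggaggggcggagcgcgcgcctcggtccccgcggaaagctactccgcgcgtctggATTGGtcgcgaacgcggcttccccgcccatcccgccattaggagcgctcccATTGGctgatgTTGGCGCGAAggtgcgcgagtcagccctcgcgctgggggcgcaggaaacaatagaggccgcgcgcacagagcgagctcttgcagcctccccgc
RBBP7: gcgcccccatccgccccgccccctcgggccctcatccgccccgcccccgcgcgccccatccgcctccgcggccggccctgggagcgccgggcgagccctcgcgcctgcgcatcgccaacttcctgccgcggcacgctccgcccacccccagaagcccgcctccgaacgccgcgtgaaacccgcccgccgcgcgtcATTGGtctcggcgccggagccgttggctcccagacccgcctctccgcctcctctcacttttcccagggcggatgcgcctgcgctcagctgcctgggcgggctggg

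All 10 genes had a RefSeq window, 15 windows in all, and the window nearest to the start of the gene's GENCODE canonical transcript was used. For AEBP2 that window lies 1107 bases from the canonical start and does not hold it. The window used held an E2F core for EZH2, beginning 2 bases after the start, and for RBBP4, where a match to TTGGCGC and a match to TTCGCGC on the other strand overlap 43 bases before the start. None of the other 8 windows used held one, and 5.06% of all 35116 windows did. This depends on the window, since a second RefSeq window of RBBP7 (chrX:16869814-16870113) holds TTCGCGC at position -93 and the second window of EZH2 holds no E2F core. CCAAT was found in 7 of the 10 windows used, 4 times for EZH2, 2 times for RBBP4 and also for the uncalled genes RBBP7, SUZ12, EED, PHF19 and JARID2, and in 34.6% of all windows, while TTTGAA was found for SUZ12 alone among the 10 and in 15.2% of all windows. The EZH2, EZH1, RBBP4 and RBBP7 windows hold 46, 30, 42 and 44 CpGs, against a median of 14 over all windows. Both E2F cores contain CG, and the 5.06% was not matched for CpG content. It therefore does not give the share to be met by chance in windows as rich in CpG as these. These are matches of letters and not sites shown to be bound. DNA methylation, which the authors profiled separately by bisulfite sequencing, was not measured in these files.

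The catalytic subunits changed in opposite directions. EZH2, the main H3K27 methyltransferase of dividing cells (chromosome 7, 148807257 to 148884321, hg38), had 89.4, 104 and 88.8 CPM in DNMT3B KO replicates 1, 2 and 3, against 61.6, 41.5 and 69.9 CPM in HCT116 replicates 1, 2 and 3. Each DNMT3B KO library lay above each HCT116 library, and the HCT116 libraries were more spread. The means were 94.1 ± 8.58 CPM in DNMT3B KO and 57.7 ± 14.6 CPM in HCT116 cells (SD, n = 3 each), a log2 fold change of 0.71 (standard error 0.18, 95% interval 0.29 to 1.12, adjusted p = 0.022). Without DNMT3B KO replicates 1, 2 and 3 the adjusted p was 0.059, 0.093 and 0.065, and without HCT116 replicate 1 it was 0.059, whereas EZH2 stayed called without HCT116 replicate 2 (0.0060) or 3 (0.0056). EZH2 was higher in DNMT3B KO cells in each of these fits.

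EZH1 (chromosome 17, 42700275 to 42745049) is the alternative methyltransferase and was the least abundant of the 10 transcripts per kilobase. It had 10.5, 7.30 and 9.11 CPM in DNMT3B KO replicates 1, 2 and 3, against 17.8, 24.3 and 13.3 CPM in HCT116 replicates 1, 2 and 3. Every DNMT3B KO library lay below every HCT116 library, and HCT116 replicate 2, lowest for EZH2, was highest for EZH1. EZH1 fell by 1.04 on the log2 scale (standard error 0.23, adjusted p = 0.013), which is a level 0.486 times that of HCT116 cells with a 95% interval of 0.334 to 0.707. The adjusted p was 0.060 without DNMT3B KO replicate 2 and at most 0.049 without any other library.

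Transcript length was taken into account to compare EZH2 with EZH1, by dividing CPM by the length of the canonical transcript in kilobases (2654 bases for EZH2 and 4633 for EZH1). On this scale the level of EZH2 was 14.9, 24.9 and 17.0 times that of EZH1 in DNMT3B KO replicates 1, 2 and 3, against 6.04, 2.98 and 9.15 times in HCT116 replicates 1, 2 and 3. EZH1 thus made up 3.86 to 6.31% of the catalytic transcripts in DNMT3B KO and 9.85 to 25.1% in HCT116 libraries. The log2 ratio averaged 4.21 ± 0.39 in DNMT3B KO and 2.46 ± 0.82 in HCT116 cells (SD, n = 3 each), a difference of 1.75 or 3.37-fold (exact permutation test, two-sided, p = 0.10, the smallest that 3 against 3 libraries allow, and adjusted p = 0.12 over 6 ratios). Leaving out single libraries gave 1.31 to 2.12. The absolute ratio depends on which transcript sets the length, whereas the difference between the cell lines does not.

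**Figure D2:**
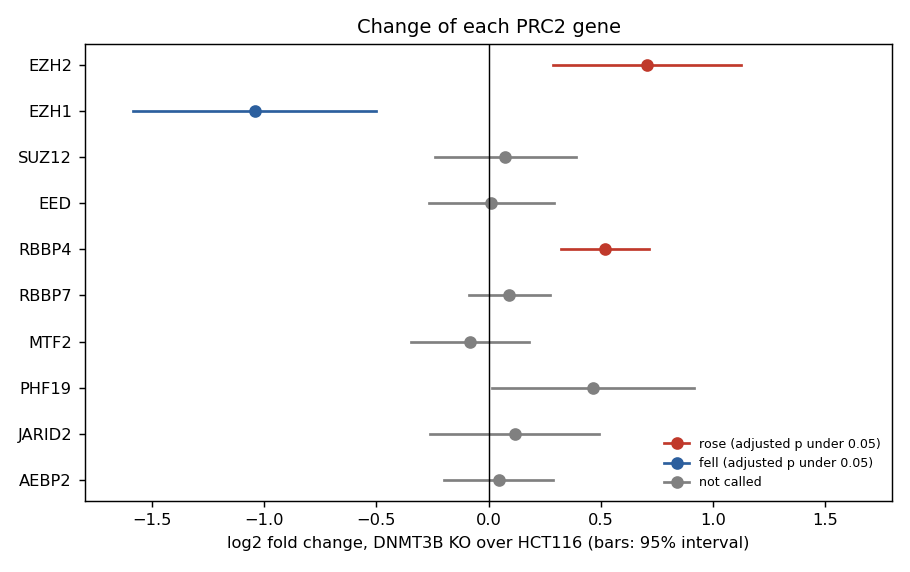
Log2 fold change of each PRC2 gene, DNMT3B KO over HCT116 (horizontal axis), with its 95% interval as a bar, in red where it rose, blue where it fell and grey where it was not called at an adjusted p under 0.05. EZH2 (0.71) and RBBP4 (0.52) lie to the right of 0, EZH1 (-1.04) lies to the left, and the interval of PHF19 begins at 0.02.

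The core subunits did not pass the test. SUZ12, the scaffold of the complex (chromosome 17, 31937007 to 32001038), had 123, 119 and 130 CPM in DNMT3B KO replicates 1, 2 and 3, against 127, 93.4 and 133 CPM in HCT116 replicates 1, 2 and 3. EED, the H3K27me3-binding subunit (chromosome 11, 86201212 to 86278813), had 35.6 CPM in each of the DNMT3B KO libraries, against 35.6, 29.6 and 40.7 CPM in HCT116 replicates 1, 2 and 3. For both genes the DNMT3B KO values lay within the range of HCT116. SUZ12 had a log2 fold change of 0.08 (95% interval -0.24 to 0.39, adjusted p = 0.73) and EED of 0.01 (95% interval -0.27 to 0.292, adjusted p = 0.95). These intervals leave out the log2 fold change of 0.71 fitted for EZH2. They overlap the 95% interval of EZH2, which begins at 0.288, and a difference in fold change between the genes was not tested in this fit. Without HCT116 replicate 2 SUZ12 and EED turned negative, -0.08 and -0.11, and neither was called. Of the 50-base stretches of the SUZ12 transcript, 90.3% occur in no other annotated gene and 9.29% are shared with the pseudogene SUZ12P1, so its count is less certain than that of EZH1 or RBBP7, which share none.

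Ratios within a library show the same difference without any scaling between libraries. Per kilobase, EZH2 stood at 1.23, 1.48 and 1.15 times SUZ12 in DNMT3B KO replicates 1, 2 and 3, against 0.823, 0.753 and 0.887 times in HCT116 replicates 1, 2 and 3. Against EED it stood at 1.98, 2.30 and 1.96 times in DNMT3B KO and 1.36, 1.10 and 1.35 times in HCT116 libraries. The log2 differences were 0.64 for SUZ12 and 0.71 for EED, with no overlap between the cell lines in either ratio (exact permutation test, p = 0.10 and adjusted p = 0.12 for each).

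**Figure D3:**
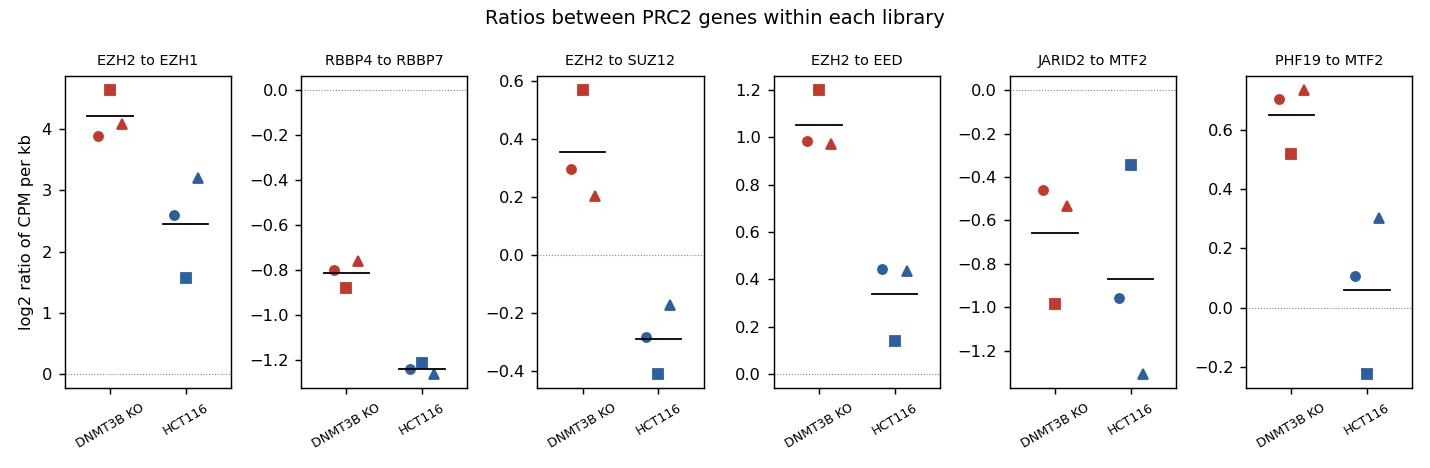
Log2 ratio of CPM per kilobase between 2 PRC2 genes in the same library (vertical axes, each panel with its own range and a dotted line at 0 where it falls in range), with 1 point per library and a line at the mean, DNMT3B KO in red and HCT116 in blue. The cell lines do not overlap for EZH2 to EZH1, RBBP4 to RBBP7, EZH2 to SUZ12, EZH2 to EED and PHF19 to MTF2, and overlap for JARID2 to MTF2.

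Of the histone-binding WD40 proteins, which PRC2 shares with other chromatin complexes, RBBP4 rose and its paralog RBBP7 did not pass the test. RBBP4 (chromosome 1, 32651142 to 32686211) had 421, 413 and 453 CPM in DNMT3B KO replicates 1, 2 and 3, against 305, 296 and 297 CPM in HCT116 replicates 1, 2 and 3. The HCT116 libraries differed little, with an SD of 1.76% of the mean. The log2 fold change of RBBP4 was 0.52 (standard error 0.08, 95% interval 0.32 to 0.72, adjusted p = 0.0030), or 1.43-fold, and it was called without any single library (adjusted p = 0.0026 to 0.022). RBBP7 (chromosome X, 16839283 to 16870362) had 212, 220 and 222 CPM in DNMT3B KO replicates 1, 2 and 3, against 209, 199 and 206 CPM in HCT116 replicates 1, 2 and 3. These did not overlap either, but the log2 fold change was 0.09 (95% interval -0.09 to 0.27, adjusted p = 0.42).

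The ratio of RBBP4 to RBBP7 per kilobase was 0.573, 0.544 and 0.590 in DNMT3B KO replicates 1, 2 and 3, against 0.423, 0.430 and 0.416 in HCT116 replicates 1, 2 and 3. The log2 ratio was 0.43 higher in DNMT3B KO cells (exact permutation test, p = 0.10 and adjusted p = 0.12) and its SD was 0.06 in DNMT3B KO and 0.02 in HCT116 libraries. Of the 50-base stretches of RBBP4, 94.0% occur in no other annotated gene and the rest mostly in its processed pseudogenes, of which RBBP4P1 reached the highest level, 0.65 to 1.11 CPM in DNMT3B KO and 0.50 to 0.66 CPM in HCT116 libraries. RBBP4 overlaps SYNC on the other strand over 6306 bases. SYNC was at 1.82 to 1.97 CPM in DNMT3B KO and 2.96 to 4.54 CPM in HCT116 libraries, the opposite direction and far below the RBBP4 level.

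Of the PRC2.1 subunits among the followed PRC2 genes, PHF19 had separated libraries and MTF2 did not. Over all tested genes, 45.9% were separated in this way. PHF19 (chromosome 9, 120855651 to 120894896), which binds H3K36me3 through its Tudor domain, had 85.8, 88.3 and 93.4 CPM in DNMT3B KO replicates 1, 2 and 3, against 66.2, 44.8 and 82.6 CPM in HCT116 replicates 1, 2 and 3. The gap between the lines was small beside the spread within HCT116, whose SD was 29.4% of the mean. The log2 fold change was 0.47 (standard error 0.20, 95% interval 0.02 to 0.92, adjusted p = 0.11), with 0.25 (adjusted p = 0.11) without HCT116 replicate 2 and 0.69 (adjusted p = 0.012) without HCT116 replicate 3. MTF2 (chromosome 1, 93079235 to 93139079), a Polycomb-like protein that binds unmethylated CpG-rich DNA, had 51.8 to 60.6 CPM in DNMT3B KO and 51.4 to 65.9 CPM in HCT116 libraries. Its log2 fold change was -0.08 (95% interval -0.35 to 0.18, adjusted p = 0.63). Per kilobase, PHF19 was at 1.63, 1.43 and 1.66 times MTF2 in DNMT3B KO replicates 1, 2 and 3, against 1.08, 0.856 and 1.23 times in HCT116 replicates 1, 2 and 3, with a log2 difference of 0.59 (exact permutation test, p = 0.10 and adjusted p = 0.12).

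The PRC2.2 subunits did not pass the test. JARID2 (chromosome 6, 15246069 to 15522042), which helps to recruit PRC2 and binds nucleosomes with ubiquitinated H2A, had 55.6, 45.2 and 56.3 CPM in DNMT3B KO replicates 1, 2 and 3, against 45.9, 59.7 and 39.2 CPM in HCT116 replicates 1, 2 and 3. With EZH1 it was the other member highest in HCT116 replicate 2. JARID2 had a log2 fold change of 0.12 (95% interval -0.26 to 0.49, adjusted p = 0.64), which was -0.01 without HCT116 replicate 3. AEBP2 (chromosome 12, 19404045 to 19720801), a zinc finger subunit that stabilises the complex, had 45.7 to 49.9 CPM in DNMT3B KO and 39.8 to 49.2 CPM in HCT116 libraries, with a log2 fold change of 0.04 (95% interval -0.20 to 0.29, adjusted p = 0.79). The JARID2 to MTF2 ratio overlapped between the lines (log2 difference 0.21, exact permutation test, p = 0.70 and adjusted p = 0.70), so the balance between these PRC2.1 and PRC2.2 subunits did not differ beyond the spread of the libraries.

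Per kilobase of canonical transcript, the order of levels in DNMT3B KO cells was RBBP7 (95.6 ± 2.28), RBBP4 (54.4 ± 2.74), EZH2 (35.4 ± 3.23), SUZ12 (27.6 ± 1.32), PHF19 (21.5 ± 0.94), EED (17.0 ± 0.020), MTF2 (13.7 ± 1.09), JARID2 (8.72 ± 1.04), AEBP2 (8.09 ± 0.41) and EZH1 (1.94 ± 0.35 CPM per kilobase, SD, n = 3). JARID2 and AEBP2 did not differ there beyond their spread, nor in HCT116 cells (8.04 ± 1.74 and 7.85 ± 0.89 CPM per kilobase). HCT116 cells had the same genes at both ends, RBBP7 (89.7 ± 2.24) and RBBP4 (37.9 ± 0.67) at the top and EZH1 (3.99 ± 1.19 CPM per kilobase) at the bottom. Between them, EZH2 (21.7 ± 5.50) and SUZ12 (26.2 ± 4.77) overlapped in HCT116, as did EED (16.9 ± 2.65), PHF19 (15.6 ± 4.57) and MTF2 (14.5 ± 1.79 CPM per kilobase). Within each HCT116 library, however, EZH2 lay below SUZ12 and EED above MTF2, while the place of PHF19 varied. These levels rest on the canonical transcript of each gene, and RBBP4, whose canonical transcript of 7883 bases is the longest, would rank higher with a shorter one.

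HCT116 replicate 2 lay at an end of the HCT116 range for the PRC2 genes. It was the lowest of the 3 HCT116 libraries for 8 of the 10 and the highest for EZH1 and JARID2, and replicate 3 was the highest for 6. For RBBP4 and RBBP7, among the 8, the HCT116 libraries hardly differed (range of log2 CPM 0.046 and 0.069). Over all tested genes, replicate 2 was the lowest HCT116 library for 37.6%. All 23 genes of a proliferation list (replication, cyclin and mitosis genes such as MKI67, TOP2A and the MCM helicase subunits) were lowest in HCT116 replicate 2, and 22 were highest in replicate 3. Their mean log2 CPM was 7.51, 7.57 and 7.57 in DNMT3B KO replicates 1, 2 and 3, against 7.69, 7.07 and 7.88 in HCT116 replicates 1, 2 and 3, so the DNMT3B KO libraries lay within the HCT116 range. In bulk RNA, fewer dividing cells and less of these RNAs per cell cannot be told apart.

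EZH2 followed the proliferation genes closely over the 3 HCT116 libraries, and its level relative to them was higher in DNMT3B KO cells. Relative to the mean of the list, the log2 level of EZH2 was -1.02, -0.87 and -1.10 in DNMT3B KO replicates 1, 2 and 3, against -1.74, -1.70 and -1.75 in HCT116 replicates 1, 2 and 3. The range over HCT116 libraries was 0.06 on this scale, compared with 0.75 for log2 CPM itself. PHF19 gave -1.08, -1.10 and -1.03 in DNMT3B KO replicates 1, 2 and 3, against -1.64, -1.59 and -1.51 in HCT116 replicates 1, 2 and 3, and its HCT116 range was 0.13 in place of 0.88. The differences of 0.73 for EZH2 and 0.51 for PHF19 had no overlap between the lines (exact permutation test, p = 0.10 and adjusted p = 0.50 over the 10 genes). For RBBP4, whose CPM hardly varied among HCT116 libraries, the relative level ranged over 0.80 and the lines overlapped. EZH1 overlapped on this scale too, at -4.70 to -4.11 in DNMT3B KO and -4.14 to -2.47 in HCT116 libraries, a difference of -1.02 (exact permutation test, p = 0.20 and adjusted p = 0.50).

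A fit with the mean of the proliferation list as a covariate, added after these values were seen, called EZH2, EZH1, RBBP4 and also PHF19. EZH2 had a log2 fold change of 0.74 (adjusted p = 8.1e-05) there, EZH1 of -1.0 (adjusted p = 0.00049), RBBP4 of 0.52 (adjusted p = 0.00027) and PHF19 of 0.51 (adjusted p = 0.00030). This fit called 44.8% of tested genes, so calls are more frequent throughout. The covariate was computed from the same 6 libraries and has no error of its own in the fit. It hardly varied among DNMT3B KO libraries, whereas HCT116 replicate 2 (7.07) and replicate 3 (7.88) lay far apart. Its slope therefore rests mainly on the HCT116 libraries, where EZH2 and PHF19 had already been seen to follow it. Taking out that spread lowers their p-values, which are thus no separate test of the difference between the lines.

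**Figure D4:**
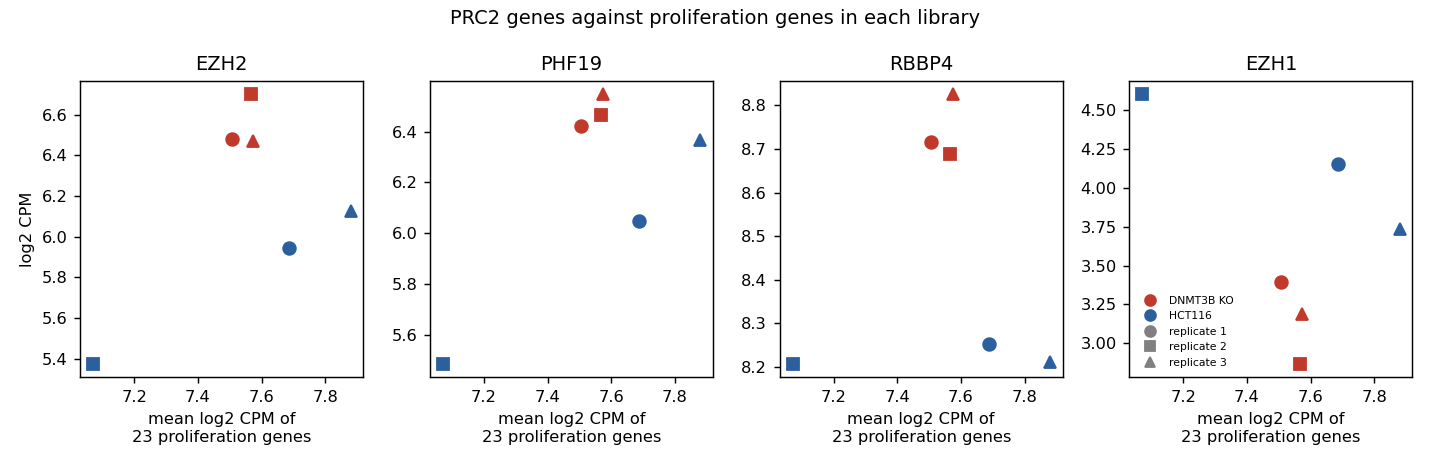
Log2 CPM of EZH2, PHF19, RBBP4 and EZH1 (vertical axes) against the mean log2 CPM of 23 proliferation genes (horizontal axes) in each library, DNMT3B KO in red and HCT116 in blue, with the marker shape for the replicate number. EZH2 and PHF19 rise with the proliferation genes over the HCT116 libraries and are higher in the DNMT3B KO libraries, which sit between 7.51 and 7.57 on the horizontal axis, and RBBP4 is nearly level over the HCT116 libraries.

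Other PRC2 subunits and the enzymes that act on the same residue were not called by edgeR, 0 of 4 tested in each list. At an unadjusted p under 0.05, which 40% of all tested genes reached, 3 of the 4 subunits (EPOP, LCOR and LCORL) and 0 of the 4 enzymes passed, and DESeq2 called 2 of the subunits and 0 of the enzymes. EPOP, a PRC2.1 subunit that links to elongin, had 58.5, 56.8 and 58.9 CPM in DNMT3B KO replicates 1, 2 and 3, against 45.0, 47.0 and 54.2 CPM in HCT116 replicates 1, 2 and 3 (log2 fold change 0.25, adjusted p = 0.082). The PALI proteins of PRC2.1, made from LCOR and LCORL, had log2 fold changes of -0.30 (adjusted p = 0.061) and 0.49 (adjusted p = 0.051). EPOP was called with upper-quartile scaling (adjusted p = 0.023), with the proliferation covariate (0.027) and without HCT116 replicate 3 (0.019), and LCOR by DESeq2 (0.035), with that covariate (0.014) and without HCT116 replicate 3 (0.018). LCORL was called in 7 of 12 alternative fits, with adjusted p = 0.020 to 0.17 when single libraries were left out. PHF1, the third Polycomb-like protein, was at 33.9 ± 6.70 CPM in DNMT3B KO and 33.9 ± 5.01 CPM in HCT116 cells (SD, n = 3 each), and the PRC2 inhibitor EZHIP had no count in any library, which allows up to 0.042 to 0.050 CPM in DNMT3B KO and 0.045 to 0.060 CPM in HCT116 libraries (3 counts each, counting error only). The H3K27 demethylases KDM6A and KDM6B had log2 fold changes of 0.13 (adjusted p = 0.32) and -0.08 (adjusted p = 0.69), and the acetyltransferases of the same residue CREBBP and EP300 of 0.28 (adjusted p = 0.17) and 0.10 (adjusted p = 0.41). CREBBP was called (adjusted p = 0.016) without HCT116 replicate 3.

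RBBP4 and RBBP7 also serve in the NuRD and SIN3 deacetylase complexes, in the chromatin assembly factor CAF-1 and in the nucleosome remodelling factor NURF. Of 22 partners in these and related complexes, 3 rose, 6 fell and 13 did not pass, so that 40.9% were called against 28.1% of all tested genes, with a median log2 fold change of 0.06. HDAC1, the deacetylase of NuRD and SIN3, had 165, 166 and 163 CPM in DNMT3B KO replicates 1, 2 and 3, against 305, 310 and 302 CPM in HCT116 replicates 1, 2 and 3, and fell by 0.89 on the log2 scale (adjusted p = 0.00012). The NuRD subunits MTA1 and MTA3 fell by 0.77 and 0.69 (adjusted p = 0.00095 and 0.0024). SMARCA1, an ISWI remodelling ATPase, fell by 4.53, to 3.88 ± 0.95 CPM in DNMT3B KO against 89.9 ± 21.7 CPM in HCT116 cells (SD, n = 3 each; adjusted p = 1.2e-05). The 3 partners that rose, as RBBP4 did, are named after their values were seen: the NuRD subunits MTA2 (0.43, adjusted p = 0.015) and CHD3 (0.39, adjusted p = 0.0098) and the SIN3 subunit SAP30 (0.64, adjusted p = 0.022). NuRD subunits thus changed in both directions. Leaving out DNMT3B KO replicate 1 or HCT116 replicate 1 left 0 partners that rose, DNMT3B KO replicate 2 or 3 left 1, and HCT116 replicate 3 gave 7.

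EZH2 and EED are E2F-driven genes, and RBBP4 is itself part of MuvB, the core of the DREAM complex that represses cell cycle genes. Of 20 RB, E2F and DREAM regulators, 3 rose, 1 fell and 16 did not pass, so that 20% were called, a smaller share than the 28.1% of all tested genes. LIN9, a MuvB subunit, had 29.5, 31.2 and 29.8 CPM in DNMT3B KO replicates 1, 2 and 3, against 16.2, 11.3 and 17.2 CPM in HCT116 replicates 1, 2 and 3, a log2 fold change of 1.02 (adjusted p = 0.0024). The MuvB subunit LIN54, which binds the CHR element, and the MYB family factor MYBL1 rose by 0.66 and 0.90 (adjusted p = 0.014 and 0.0070). RB1, which holds E2F factors inactive, fell by 0.51 (adjusted p = 0.024). The calls of LIN9 and MYBL1 were kept without any single library, LIN54 missed the threshold when DNMT3B KO replicate 1 (0.052) or 3 (0.067) was dropped, and RB1 when any DNMT3B KO library (0.098, 0.095 and 0.057 for replicates 1, 2 and 3) or HCT116 replicate 1 (0.089) was dropped. The number that fell was 2 without HCT116 replicate 2 or 3.

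In the proliferation list itself, 0 of 23 genes rose, 3 fell and 20 did not pass, so that 13.0% were called against 28.1% of all tested genes, with a median log2 fold change of 0.08 (edgeR, with 0 higher also at an unadjusted p under 0.05 and by DESeq2). The kinases of the mitotic checkpoint and chromosome passenger complex BUB1 and AURKB fell by 0.73 and 0.97 (adjusted p = 0.011 and 0.0038), and the replicative helicase subunit MCM4 by 0.96 (adjusted p = 0.026). AURKB was called without any single library. MCM4 was not called when a DNMT3B KO library or HCT116 replicate 1 was dropped (adjusted p = 0.080 to 0.10), and BUB1 not when DNMT3B KO replicate 1 or 3 or HCT116 replicate 1 was (adjusted p = 0.051 to 0.055), which left 1 gene that fell. Dropping HCT116 replicate 2 gave 5.

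PRC2 is best known for silencing lineage transcription factors, and 65 such genes were listed. The filter on low counts left 27, and 17 of the 38 others had no count in any library. A gene near silence in one line passes the filter mainly when it is higher in the other, so the calls describe single genes and not the list. Of the 27, 5 rose, 3 fell and 19 did not pass, and the 29.6% called is near the 28.1% of all tested genes. IRX4, an Iroquois homeobox gene, had 27.6, 36.7 and 29.5 CPM in DNMT3B KO replicates 1, 2 and 3, against 9.76, 9.50 and 10.5 CPM in HCT116 replicates 1, 2 and 3, a log2 fold change of 1.66 (adjusted p = 8.7e-05). The homeobox genes DLX1, MEIS2 and MSX1 rose by 1.34, 0.95 and 0.49 (adjusted p = 0.0019, 0.0011 and 0.0042). The 3 that fell, named after their values were seen, were NKX6-1, GATA3 and ONECUT1, with log2 fold changes of -0.78, -0.94 and -1.33 (adjusted p = 0.020, 0.022 and 0.023). Dropping DNMT3B KO replicate 1 or 2 left 1 that fell, and dropping DNMT3B KO replicate 3 or HCT116 replicate 1 left 0. The authors profiled H3K27me3 by ChIP-seq in both lines, but those data were not used here. Whether these genes carry the mark in either line was therefore not tested.

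**Figure D5:**
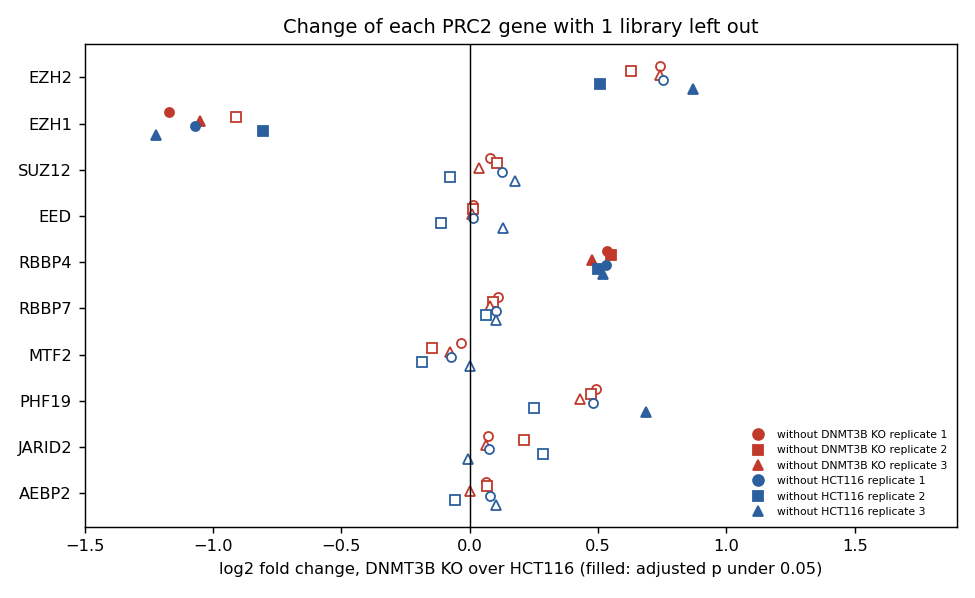
Log2 fold change of each PRC2 gene, DNMT3B KO over HCT116 (horizontal axis), in 6 fits that each leave out 1 library (red for a DNMT3B KO and blue for an HCT116 library, marker shape for its replicate number), filled where the adjusted p is under 0.05. RBBP4 is filled throughout at 0.48 to 0.55, EZH1 is open only without DNMT3B KO replicate 2, EZH2 is filled only without HCT116 replicate 2 or 3, and PHF19 only without HCT116 replicate 3.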

How the data were processed

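RNA from DNMT3B KO and HCT116 cells was sequenced by the authors as stranded mRNA libraries with paired-end reads. The authors aligned reads to hg38 with STAR through nf-core/rnaseq, quantified Ensembl transcripts by Salmon, and deposited gene-level estimated counts scaled for gene length. Whether counting used the strand is not given in the sources used here. Counts were rounded, genes with low counts removed (filterByExpr), libraries normalised by TMM and genotype tested as the only factor with edgeR 4.0.16 (quasi-likelihood F test, R 4.3.3) over 16959 genes, with Benjamini-Hochberg adjustment. Standard errors are the size of the log2 fold change over the square root of F. On counts simulated with a fixed spread, the fit called 29 of 67 genes changed 1.5-fold and 67 of 67 changed 2-fold. It called 6 of 16142 unchanged genes there. Symbols are those of the files, and 60437 gene IDs matched GENCODE 44 (hg38), which gave positions and lengths. The PRC2 genes, related lists and rules were chosen with earlier results of these data known. All PRC2 genes are named, with every gene of lists of up to 5 and the 4 called genes of smallest adjusted p with at least 1 CPM in longer lists. Alternatives changed the scaling, the test (DESeq2 1.42.0), the filter, the replicate block and the libraries.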

Additional observations from a re-analysis of the deposited data

How the results depend on the processing

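The log2 fold changes of EZH2, EZH1 and RBBP4 kept their direction in all 36 alternative fits (12 for each) and were called in 31. The 5 lost calls all came from leaving out a library. With single libraries left out, EZH2 ranged over 0.51 to 0.87, EZH1 over -1.22 to -0.81, PHF19 over 0.25 to 0.69, AEBP2 over -0.057 to 0.10, EED over -0.11 to 0.13, JARID2 over -0.0081 to 0.29, MTF2 over -0.19 to 0.0013, SUZ12 over -0.078 to 0.18, KDM6B over -0.17 to 0.00046, PHF1 over -0.17 to 0.092 and the log2 ratio of JARID2 to MTF2 over -0.0085 to 0.47. The number of PRC2 genes called ranged over 1 to 4, the 1 being without DNMT3B KO replicate 2, that of all genes over 3049 to 5924 and that of the related lists over 13 to 33, from 24. Upper-quartile scaling turned MTF2 to 0.0027 and KDM6B to 0.00098. PHF1, at 0.0012, became -0.0024 with the size factors of DESeq2, -0.0051 with its Wald test and -0.0046 with the replicate block. With the proliferation covariate 7598 of all genes and 48 of the related lists were called, and PHF19 had 0.51. The cause of these differences was not tested. Same-numbered libraries did not deviate together (correlations 0.06, -0.01 and 0.12), so the numbers do not pair them. With the replicate block, 3 PRC2 genes and 4214 of all genes were called. With 3 libraries a line, the 95% intervals of the uncalled PRC2 genes leave changes of up to 1.89-fold open for PHF19 and 1.41-fold for JARID2.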

Other observations

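The annotated pseudogenes of the PRC2 genes were followed as well, 9 in all. Among them, 7 had 4 counts or fewer in every library. SUZ12P1, a transcribed copy of part of SUZ12 on chromosome 17, had 6.30, 6.44 and 6.79 CPM in DNMT3B KO replicates 1, 2 and 3, against 5.93, 5.46 and 5.57 CPM in HCT116 replicates 1, 2 and 3, with no overlap and a log2 fold change of 0.20 (adjusted p = 0.34). RBBP4P1 had a log2 fold change of 0.69 (adjusted p = 0.14) on 28 to 68 counts per library. SYNC, which encodes an intermediate filament protein and overlaps RBBP4 on the other strand, fell by 0.99 on the log2 scale (adjusted p = 0.013), and TXLNG, which overlaps RBBP7 in the same way, had a log2 fold change of -0.24 (adjusted p = 0.13).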
